A study of Arabidopsis thaliana with 29 samples.

Results

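The comparison described here is the change in leaf transcripts of Dex-GDU1 plants between 7 h and 25 h after a dexamethasone spray. Its members are the gene entries with an FPKM (read fragments scaled by transcript length and library size, so a level per length) of at least 1 at either time, 17545 of 32650 entries, joined between the authors' deposited tables for the 2 times. The entry just inside this limit, AT3G57460, had FPKM values of 1.00006 and 0.905569, and the entry just outside, AT1G30290, had 0.997512 and 0.940946. Dex-GDU1 (line 183B7) is an Arabidopsis thaliana Columbia line in which a dexamethasone-activated synthetic transcription factor drives the GLUTAMINE DUMPER gene GDU1, and 4c-S7 is its parental line without the GDU1 construct. At each time there were 3 Dex-GDU1 and 4 4c-S7 libraries, labelled as biological replicates, each of all leaves of 4 to 6 plants. All plants of both lines were grown for 23 days in 16 h light and 8 h dark at 22 °C, then sprayed with 100 µM dexamethasone and 300 ppm Silwet L-77, a wetting agent, 5 h after dawn, and kept under a humidity dome for 7 h. The 7 h leaves were therefore taken 12 h after dawn, when the dome was due off, and the 25 h leaves 6 h after the next dawn, 18 h after that. Within Dex-GDU1 the time since induction, the time of day, the end of high humidity and leaf age cannot be told apart. The 4c-S7 leaves share all of these except induced GDU1, so most changes are given beside the change in 4c-S7. There was no unsprayed group, and each line is 1 transgenic line.

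GDU1 is a small plant membrane protein with a single membrane-spanning segment, and plants that over-express it are known to export more amino acids from their cells and to form smaller leaves with lesions. The plant circadian clock is a set of mutually repressing transcription factors, morning MYB proteins such as CCA1 and LHY and evening proteins such as TOC1 and the ELF3, ELF4 and LUX complex, that set the hour at which a large part of leaf transcripts peaks. Abscisic acid is the hormone of drought and cold responses: bound to receptors of the PYR/PYL family it blocks PP2C phosphatases, which frees kinases that activate ABF transcription factors. Salicylic acid and jasmonate are the main hormones of defence against microbes and insects.

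The targeted gene itself was high at both times. GDU1 was at FPKM 5281 at 7 h and 3362 at 25 h in Dex-GDU1, against 23.3 and 6.52 in 4c-S7. These and all FPKM values are the authors' values, 1 per group and time, so no spread between libraries can be given. Because the 2 tables were normalised apart, every change over time is given as a log2 ratio of 25 h over 7 h after the median gene was set to 0; before that step the median was -0.25 in Dex-GDU1 and -0.24 in 4c-S7. On this scale GDU1 changed by -0.40 in Dex-GDU1, with an SE of at most 2.94, and was not called. The SE used throughout combines, for each gene, the SEs of the line comparison at both times as recomputed from the authors' p-values. It is an upper bound, printed as "at most", only as far as those p-values hold. The same bound from the authors' test statistic was larger by a median factor of 2.41. A gene was called at a Benjamini-Hochberg adjusted p below 0.05 over all 16968 tested members. No other GDU gene was called: GDU3 was at 10.2 and 8.60 FPKM in Dex-GDU1, GDU5 at 2.61 and 1.58 and GDU7 at 1.62 and 0.697. GDU4 lies in a stretch of reads shared by 47 entries, GDU2 was not tested, and GDU6 stayed below the limit.

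Across the leaf transcriptome 2851 genes, 16.8% of those tested, were higher at 25 h and 2209, 13%, were lower. Among the members with or without a test, 1371 (7.81%) were at least 2-fold higher and 727 (4.14%) at least 2-fold lower. Most changes were small, with the quartiles of the log2 ratio at -0.23 and 0.28 and its 5th and 95th percentiles at -0.89 and 1.36. The counts depend on the source of the SE: when it was taken from the authors' test statistic, which gives SEs larger by a median factor of 2.41, 959 genes (5.65%) were called higher and 508 (2.99%) lower. The balance of directions depends on the centring. Of all calls 56.3% were higher with the median gene at 0, 45.9% with the reference genes at 0 (2423 higher and 2853 lower) and 21.6% with no centring (1655 and 5996).

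A large part of the change had a counterpart in the parental line, whose change over time was not tested on its own. Of the 1371 genes at least 2-fold higher in Dex-GDU1, 757 (55.2%) were also at least 2-fold higher in 4c-S7, which is 79% of the 4c-S7 list of 958 genes (5.46% of the members). For the lower genes 456 were shared, 62.7% of the Dex-GDU1 list and 54% of the 844 in 4c-S7 (4.81%). The difference between the time changes of the lines was then tested for each gene. It was called for 1507 genes (8.88%) that changed more positively in Dex-GDU1 and for 836 (4.93%) that changed more negatively, and with the SE from the test statistic for 257 (1.51%) and 69 (0.407%). Among the genes called higher in Dex-GDU1, 2060 (72.3%) had no called difference from 4c-S7, and among those called lower 1706 (77.2%). List counts below are to be read beside the shares over all tested genes given here and above.

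**Figure D1:**
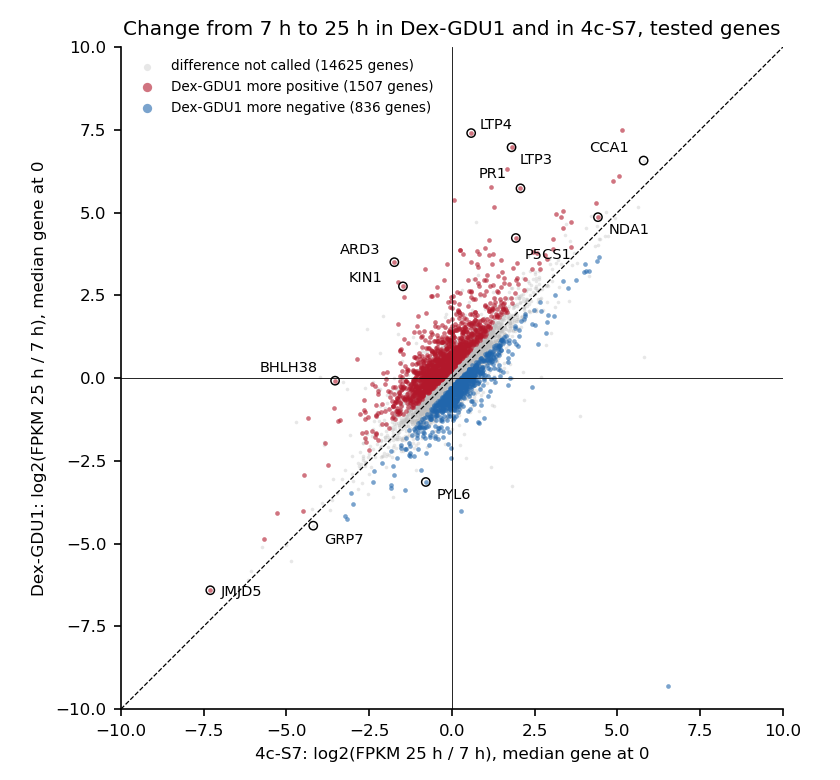
Each point is 1 tested gene, with the log2 ratio of FPKM at 25 h over 7 h in 4c-S7 on the x axis and in Dex-GDU1 on the y axis, both with the median gene at 0; colour marks the called difference between the lines and the dashed line marks equal change. Clock genes such as CCA1 and GRP7 lie near the dashed line far from the centre, while LTP4, LTP3, PR1, ARD3 and KIN1 lie far above it. JMJD5, also far from the centre, has a called difference of 0.88.

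The clock genes moved far and alike in both lines. Of 27 clock and day-phased regulators that were members, 22 were tested; 12 were called higher and 10 lower, with 10 and 10 when the SE came from the test statistic. CCA1, a morning repressor at the core of the clock, rose from 0.704 to 56.3 FPKM in Dex-GDU1 (log2 6.57, SE at most 0.29) and stood at 0.80 and 37.7 in 4c-S7. LNK2, a morning co-activator, rose from 9.27 to 144 FPKM, and COL2, a CONSTANS-like protein, from 2.11 to 34.7. The 7 h levels of all 3 were close to those of 4c-S7, and both lines were high at 25 h. The other morning genes LHY, RVE8 and PRR9 were not tested. They stood at 0.543, 0.619 and 0.212 FPKM at 7 h and at 13.9, 20.3 and 22.7 at 25 h.

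The evening genes were lower at 25 h in both lines. TOC1, the evening repressor of CCA1, fell from 85.5 to 8.64 FPKM in Dex-GDU1 (log2 -3.06, SE at most 0.11) and stood at 80.5 and 6.88 in 4c-S7. The 3 genes of the evening complex fell together: ELF4 from 149 to 7.44 FPKM, LUX from 84.5 to 10.4 and ELF3 from 43.9 to 8.01. GRP7, an RNA-binding protein whose transcript peaks late in the day, was among the most abundant of these and fell from 4422 to 169 FPKM, against 4102 and 191 in 4c-S7. FKF1, the blue-light receptor that times flowering, fell from 40.3 to 1.17, and PRR3 from 53.0 to 1.3. Outside the list JMJD5, a jumonji-domain protein linked to the clock, fell from 106 to 1.05 FPKM (log2 -6.41), and the zinc-finger gene COL9 fell from 86.7 to 2.24. JMJD5 changed by -7.30 in 4c-S7, and the difference of 0.88 was called with the main SE only.

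The lines differed in a few of these genes. ELF4 changed by log2 -4.08 in Dex-GDU1 and by -5.27 in 4c-S7, a difference of 1.18 with an adjusted p of 0.00111, and it ended at 7.44 against 3.47 FPKM. The difference was also called for FKF1 (0.82) and RVE6 (0.43), which were more positive in Dex-GDU1, and for ELF3 (-0.38), which was more negative. None of these 4 was called with the SE from the test statistic. The other 18 tested clock genes had no called difference.

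**Figure D2:**
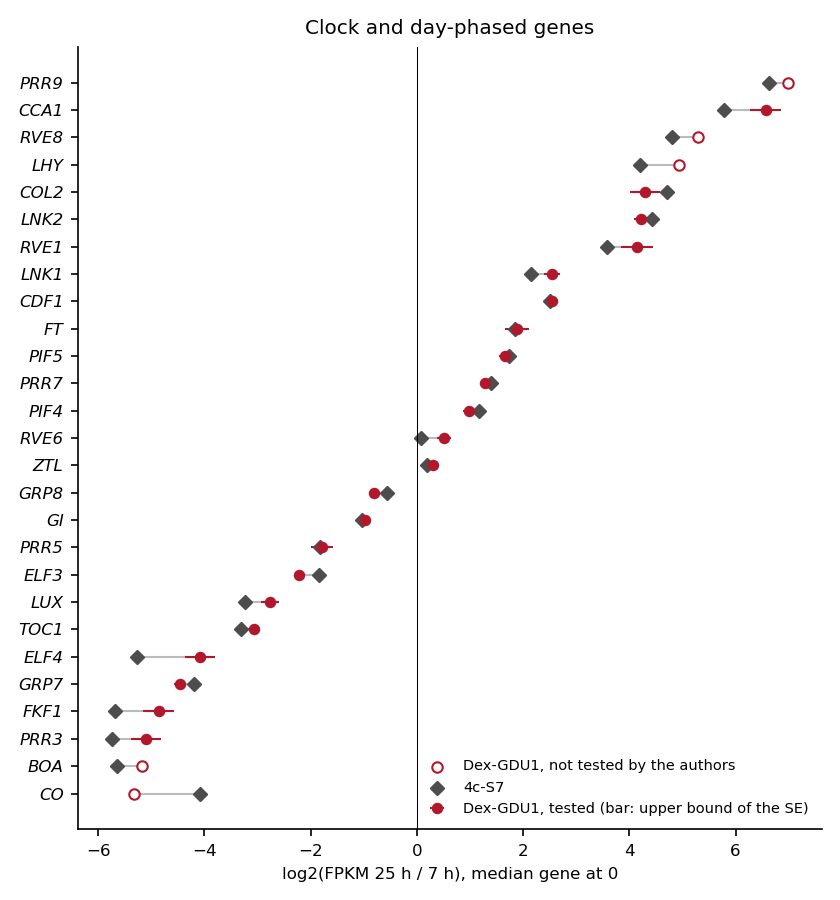
Log2 ratio of FPKM at 25 h over 7 h, median gene at 0, for 27 clock and day-phased genes in Dex-GDU1 (circles, bars for the upper bound of the SE, open where not tested) and in 4c-S7 (diamonds, 1 value without error). The genes span from -5.33 (CO) to 6.99 (PRR9) in Dex-GDU1, and both lines lie on the same side of 0 for all 27.

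Upstream sequence was read for the genes that fell and rose, because evening-phased genes are known to carry the evening element and abscisic acid-induced genes the abscisic acid response element. The window was the 250 bases before the annotated gene start on the RefSeq copy of the Arabidopsis genome (TAIR10.1), found for 15801 of 15959 members with an entry of their own. The evening element AAAATATCT, searched on both strands, was in 2.72% of all windows, in 5.24% of those of genes called lower and in 2.74% of those called higher. Among 281 genes called lower in Dex-GDU1, at least 2-fold lower in 4c-S7 and with no called difference, it was in 10.3%. It was in 8 of the 27 clock genes: FKF1, GRP7, LUX, GRP8, TOC1 and PRR5, which fell, BOA, which was low at 25 h but not tested, and COL2, which rose. The windows of 3 evening genes that fell are printed 5′ to 3′ towards the gene, with evening elements in capitals (AGATATTTT is the same motif on the other strand).
GRP7, chr2:9266558-9266807, reverse strand: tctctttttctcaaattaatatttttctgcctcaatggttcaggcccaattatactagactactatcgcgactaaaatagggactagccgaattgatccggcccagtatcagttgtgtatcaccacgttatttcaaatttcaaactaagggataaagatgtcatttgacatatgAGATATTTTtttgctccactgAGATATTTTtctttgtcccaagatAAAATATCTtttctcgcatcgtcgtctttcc
TOC1, chr5:24674713-24674962, forward strand: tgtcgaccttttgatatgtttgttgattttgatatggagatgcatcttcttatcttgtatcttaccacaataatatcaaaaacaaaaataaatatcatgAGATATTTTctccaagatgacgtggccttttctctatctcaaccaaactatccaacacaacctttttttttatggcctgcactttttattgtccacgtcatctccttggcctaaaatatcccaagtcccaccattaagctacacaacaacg
LUX, chr3:17182792-17183041, forward strand: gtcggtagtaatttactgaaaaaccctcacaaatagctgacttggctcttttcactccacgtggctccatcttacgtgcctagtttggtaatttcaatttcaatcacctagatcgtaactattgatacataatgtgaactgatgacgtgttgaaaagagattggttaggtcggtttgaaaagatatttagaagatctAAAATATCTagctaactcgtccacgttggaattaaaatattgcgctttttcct
GRP7 holds 3 copies, which start 76, 55 and 31 bases before the gene start, TOC1 holds 1 at 151 bases and LUX 1 at 53 bases.

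The abscisic acid response element, searched as ACGTGNC on both strands, was in 9.84% of all windows, 13.9% of those called higher and 9.39% of those called lower. Among 593 genes called higher whose change was also more positive than in 4c-S7 it was in 15.9%, and among 418 genes called higher with a 2-fold rise in 4c-S7 and no called difference it was in 15.6%. Its share was thus alike in the rises that both lines showed and in those that were larger in Dex-GDU1. This motif can overlap the G-box CACGTG, which was in 7.52% of all windows and 11.1% of those called higher, and it was also in 11 of the 27 clock genes, CCA1, LHY and PRR9 among them. Of the abscisic acid response genes described next, 10 of 27 hold it. Windows of 3 of them are printed with the element in capitals (on the other strand it reads GNCACGT).
RD29B, chr5:21236771-21237020, forward strand: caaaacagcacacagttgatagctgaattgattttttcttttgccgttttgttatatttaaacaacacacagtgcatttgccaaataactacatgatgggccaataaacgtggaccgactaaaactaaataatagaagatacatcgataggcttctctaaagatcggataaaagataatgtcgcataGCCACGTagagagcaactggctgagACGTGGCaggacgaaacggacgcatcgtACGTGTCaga
LEA7, chr1:19619474-19619723, forward strand: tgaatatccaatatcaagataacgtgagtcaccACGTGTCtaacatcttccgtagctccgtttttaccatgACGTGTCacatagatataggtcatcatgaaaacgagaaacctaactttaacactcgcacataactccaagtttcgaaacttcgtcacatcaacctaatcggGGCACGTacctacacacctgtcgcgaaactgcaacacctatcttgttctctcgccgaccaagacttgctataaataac
RD26, chr4:13709171-13709420, reverse strand: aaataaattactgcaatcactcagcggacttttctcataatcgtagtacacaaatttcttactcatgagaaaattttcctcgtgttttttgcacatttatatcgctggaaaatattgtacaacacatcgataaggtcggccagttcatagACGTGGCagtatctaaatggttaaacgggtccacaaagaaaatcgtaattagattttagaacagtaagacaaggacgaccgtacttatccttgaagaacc
RD29B and LEA7 hold 3 copies each and RD26 holds 1, 100 bases before the gene start. The W-box core TTGAC, bound by WRKY factors, was in 50.9% of the 593 genes and in 44.7% of all. A match is a description of the letters in the window and not of a bound site.

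Many genes of the abscisic acid, drought and cold response rose in Dex-GDU1, and their median in 4c-S7 was near 0. Of 27 members 21 were tested; 13 were called higher and 0 lower, and with the SE from the test statistic 13 higher and 2 lower. The median over the 27 was 1.68 in Dex-GDU1 and 0.02 in 4c-S7, where the median over all members is 0 in both. The difference between the lines was called as more positive for 16 of the 21 and as more negative for 0, and with the SE from the test statistic for 13 and 0. Within the group the sizes ran from -1.04 to 9.67.

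Several genes for protective proteins rose. COR15A, which stabilises chloroplast membranes in the cold, rose from 100.4 to 472 FPKM in Dex-GDU1 and stood at 83.5 and 71.9 in 4c-S7. RAB18, a dehydrin, rose from 5.07 to 46.6 FPKM against 4.16 and 8.18. The 2 lines started alike in both genes and separated by 25 h. RD29B and LEA7, both used as markers of abscisic acid and desiccation, were not tested. They stood at 0.0183 and 0.0155 FPKM at 7 h and at 3.18 and 10.6 at 25 h. At 25 h 4c-S7 stood at 0.0716 and 0.611. GolS2, which makes the raffinose precursor galactinol, rose from 1.01 to 9.26 FPKM against 0.676 and 0.519. LTI30, another dehydrin, rose from 3.48 to 9.42 FPKM against 4.12 and 2.45.

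Other members differed between the lines without a called rise in Dex-GDU1. RD29A stood at 46.2 and 70.1 FPKM in Dex-GDU1, called only with the SE from the test statistic, and at 28.2 and 8.01 in 4c-S7, and the difference of 2.42 was called. COR47 stood at 167 and 171 FPKM against 126 and 56.5, also with a called difference. KIN2 and COR15B were lower at 25 h in both lines, at 845 and 347 FPKM and at 158 and 83.9 in Dex-GDU1, but ended above 4c-S7, at 77.8 and 17.9. These 2 falls in Dex-GDU1 are called only with the SE from the test statistic. KIN1, a near copy of KIN2 with which it can share reads, rose from 1.28 to 7.35 FPKM against 1.22 and 0.370.

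Regulators of the pathway moved at several steps. Of the clade A PP2C phosphatases, which switch the pathway off, 3 of 5 tested rose. HAB1 rose from 9.78 to 25.3 FPKM against 9.27 and 11.1 in 4c-S7, and ABI2 from 4.78 to 11.5 against 4.29 and 4.75. PP2CA rose from 28 to 61.3 against 18.8 and 27.1, and its difference between the lines was not called with either SE. ABI1, at 36.2 and 47.2 FPKM, and HAB2, at 21.1 and 22.5, were not called. The entry of HAB2 lies in a long stretch (chr1:6034178-6153982), as that of GDU4 does. HAI1 and HAI2 were not tested. HAI1 stood at 0.125 and 8.72 against 0.693 and 0.968, and HAI2 at 0.653 and 5.25 against 0.482 and 0.307. ABF3, a transcription factor that binds the response element, rose from 9.71 to 39.5 FPKM against 8.68 and 16.4. RD26, a NAC factor, rose from 7.36 to 43.0 against 5.43 and 8.06. AFP3, a repressor of ABI5, rose from 1.64 to 16.3 against 2.17 and 5.18. ABF3 and AFP3 were thus also more than 2-fold higher at 25 h in 4c-S7. The receptors went the other way. PYL4 fell from 54.6 to 14.8 FPKM (log2 -1.63, SE at most 0.55) against 83.5 and 66.3 in 4c-S7. PYL6 fell from 6.77 to 0.648 against 11.3 and 5.56, and PYL5 from 13.4 to 5.08 against 15.1 and 13.0. All 3 had called differences with either SE. PYL8 fell from 66.7 to 38.1 against 70.0 and 45.4, without a called difference, while PYL7 rose from 23.5 to 37.0 against 25.3 and 23.8. In total 4 of 8 tested receptors were called lower and 1 higher (3 and 0 with the SE from the test statistic).

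A list of 4 genes held NCED3 of abscisic acid synthesis and CYP707A genes of its breakdown, and no tested gene of it passed the test over time. Other genes of synthesis were not in the list. NCED3, which makes the rate-limiting cleavage step, stood at 7.36 and 8.11 FPKM in Dex-GDU1 and at 2.2 and 3.17 in 4c-S7. CYP707A3, which hydroxylates the hormone, stood at 11.6 and 8.86 against 1.94 and 3.97. In both genes Dex-GDU1 was above 4c-S7 at both times. The list had 3 tested genes, 0 called in either direction with either SE, and CYP707A2 was not tested. The difference between the lines was called for CYP707A3 (-1.43, more negative) with the SE from the test statistic only. Over all tested members, and not for this list, 6318 genes had an unadjusted p below 0.05 in the test over time.

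The lipid transfer proteins LTP3 and LTP4, small secreted proteins known to respond to abscisic acid and cold, showed, with ARD3, the 3 largest differences between the lines among the called genes that carry a symbol and reach an FPKM of 5. LTP4 rose from 0.877 to 125 FPKM in Dex-GDU1 (log2 7.40, SE at most 1.24) and stood at 4.54 and 5.77 in 4c-S7. LTP3 rose from 3.12 to 329.8 FPKM against 6.07 and 18. In both genes Dex-GDU1 was below 4c-S7 at 7 h and above it at 25 h. The 2 genes are adjacent near copies, so reads may be divided between them with error. The epidermal LTP1 also rose, from 614 to 1409 FPKM, while the defence-priming gene AZI1 fell from 179 to 21.6, against 186 and 30.9 in 4c-S7. ARD3, an acireductone dioxygenase of the methionine salvage cycle, rose from 2.52 to 24 FPKM while 4c-S7 stood at 11.0 and 2.81, so the order of the lines was reversed between the times.

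**Figure D3:**
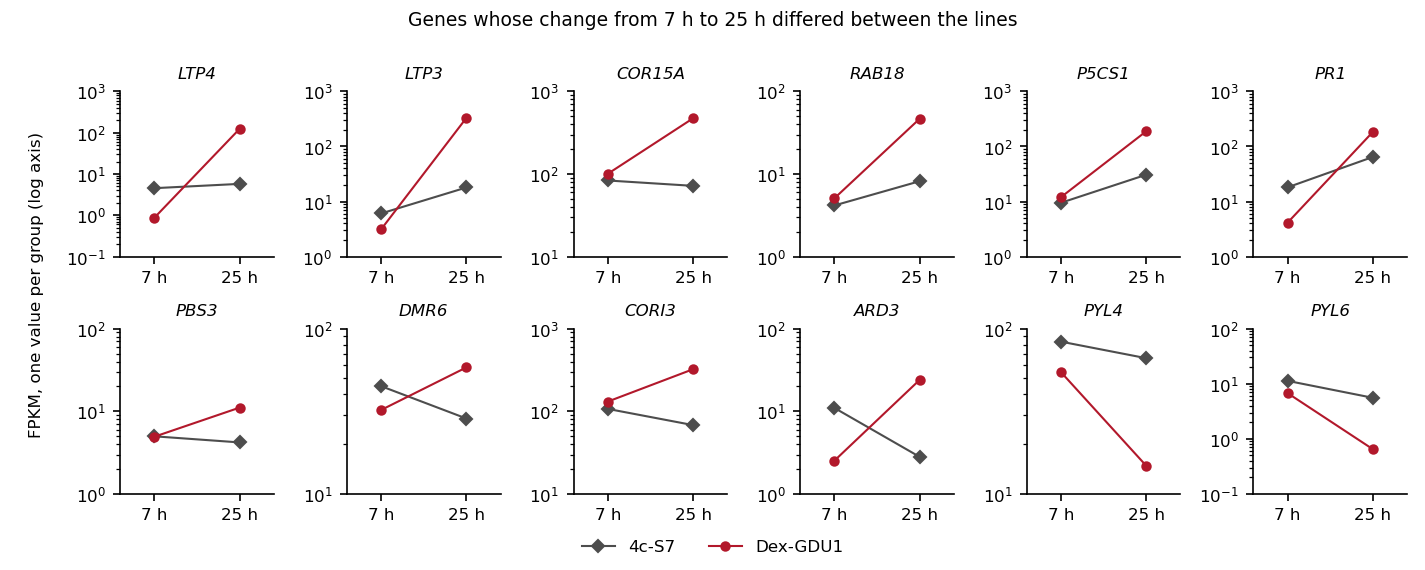
FPKM on log axes at 7 h and 25 h in 4c-S7 (diamonds) and Dex-GDU1 (circles) for 12 genes with a called difference of their time changes, 1 authors' value per group and no error. LTP4, LTP3, PR1, DMR6 and ARD3 are below 4c-S7 at 7 h and above it at 25 h, and PYL4 and PYL6 end far below it.

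Salicylic acid genes rose in part in Dex-GDU1, several from a level below that of 4c-S7. Of 24 members 23 were tested, 9 were called higher and 1 lower with each SE, and the median was 0.72 in Dex-GDU1 against -0.46 in 4c-S7. The difference was called as more positive for 17 and as more negative for 0 (12 and 0 with the SE from the test statistic). PR1, a secreted antimicrobial protein and the standard marker of the hormone, rose from 4.13 to 184 FPKM in Dex-GDU1 and stood at 18.1 and 64.5 in 4c-S7. The entry of PR1 also lies in a long stretch (chr2:6225535-6242463). PR2, a glucanase, rose from 45.5 to 93.9 FPKM against 77.0 and 47.7. Both genes were below 4c-S7 at 7 h and above it at 25 h. DMR6 and DLO1, which hydroxylate salicylic acid and so lower it, crossed in the same way, from 32.2 to 58.3 FPKM against 44.9 and 28.6 and from 4.09 to 10.7 against 9.90 and 2.70.

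Of the synthesis genes of the hormone and its partner pipecolic acid, 3 are given here. ICS1, which makes its precursor isochorismate, rose from 11.4 to 17.5 FPKM against 9.76 and 11.9, with no called difference. PBS3, which conjugates isochorismate to glutamate, rose from 4.93 to 11.1 FPKM against 4.98 and 4.2, and ALD1, the first enzyme of the pipecolic acid pathway, from 0.611 to 5.63. Several targets had no called change in Dex-GDU1 and were lower at 25 h in 4c-S7. NIMIN1, an NPR1-interacting protein, stood at 10.6 and 10.1 FPKM against 10.1 and 2.2, and WRKY70 at 214 and 200.2 against 167 and 68.7. The differences of 2.13 and 1.18 were called. NPR1 itself, the hormone's receptor and co-activator, was not called at 19.7 and 17.1 FPKM.

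Jasmonate genes also rose more in Dex-GDU1. Of 25 members 24 were tested; 12 were called higher and 0 lower (7 and 0 with the SE from the test statistic), and the median was 1.06 against -0.23 in 4c-S7. The difference was called as more positive for 15 and as more negative for 0 (8 and 0 with the SE from the test statistic). The vegetative storage protein genes VSP2 and VSP1, near copies of each other, rose from 1.77 to 46.3 and from 1.70 to 19.8 FPKM, and they were also more than 2-fold higher at 25 h in 4c-S7, at 17.7 and 8.67. Rises with a called difference from 4c-S7 included those of the repressors JAZ9 (57.0 to 160 FPKM, against 45.5 and 62.7) and JAZ10 (1.85 to 5.17, against 1.84 and 1.45), of CORI3 (131 to 323, against 107 and 68.1) and of CYP94B3, which inactivates the hormone (0.434 to 3.58, against 0.974 and 0.476). LOX2, a synthesis enzyme, was not called at 527 and 445 FPKM, while 4c-S7 stood at 436 and 195.

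**Figure D4:**
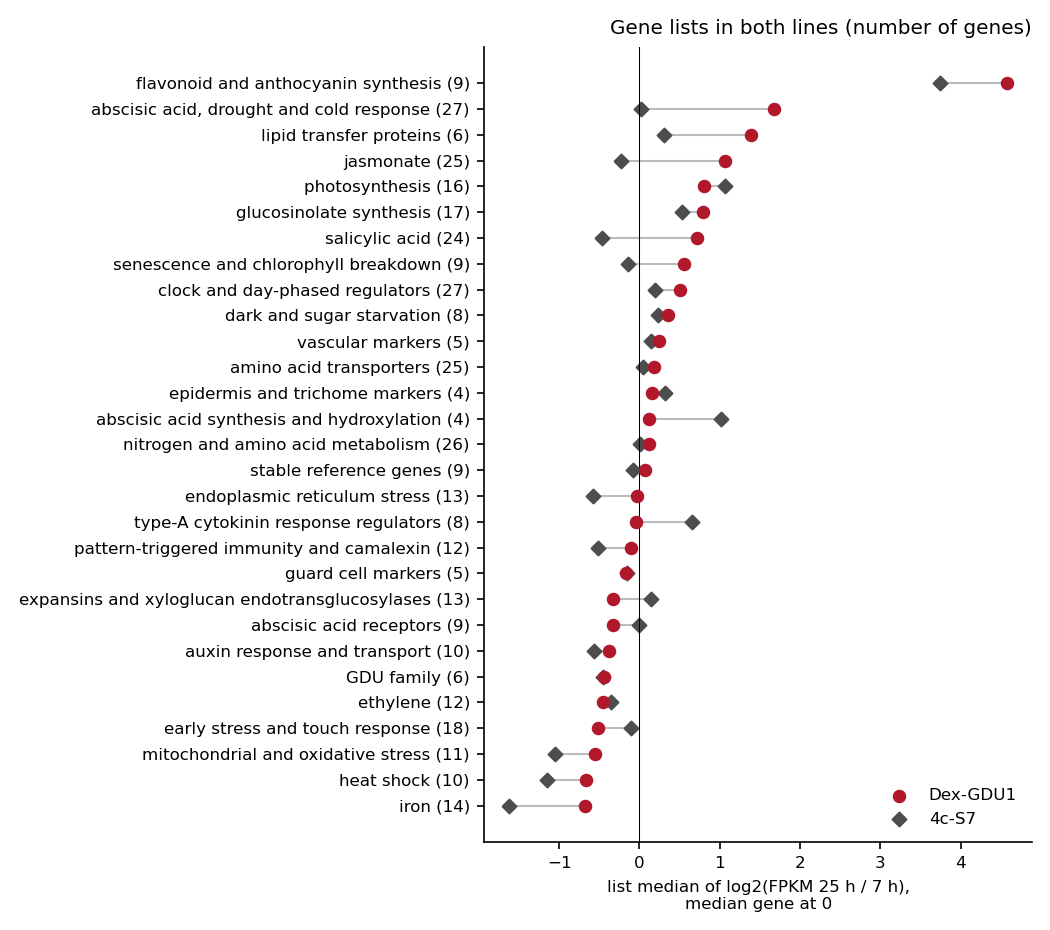
Median over each gene list with at least 4 members of the log2 ratio of FPKM at 25 h over 7 h, median gene at 0, in Dex-GDU1 (circles) and 4c-S7 (diamonds), with the number of genes in brackets. The lines lie apart for abscisic acid, jasmonate, salicylic acid, iron, and type-A cytokinin response genes, and the flavonoid list has the highest median in both. The clock list holds genes called in both directions.

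Genes known to respond fast to touch, wounding or cold were mostly not called. Of 18 tested members 0 were called higher and 2 lower with the main SE, 3 higher and 4 lower with the SE from the test statistic, and a difference between the lines was called for 0 and, with the SE from the test statistic, for 2. Over all tested genes 16.8% were called higher and 13% lower (5.65% and 2.99% with the SE from the test statistic). TCH3, a calmodulin-like protein, fell from 254 to 132 FPKM against 147 and 87.9, and ZAT12, a zinc-finger factor, from 43.3 to 19.9 against 28.6 and 12.3. ERF5, ERF6 and ZAT10 were above 4c-S7 at both times, for instance ZAT10 at 77.2 and 40.0 FPKM against 21.5 and 16.0. Of the pattern-triggered immunity and camalexin genes 0 of 12 were called higher and 2 lower (0 and 0 with the SE from the test statistic). These counts leave out 2 list genes that lie in joined entries. The entry of CYP71A13 and AT2G30760 rose from 6.83 to 34.0 FPKM against 8.80 and 8.86. Its rise and its difference of 2.31 were called with either SE. The entry of PEPR1 and AT1G73090 was not called, at 21.5 and 16.2 FPKM. PAD3, the last enzyme of camalexin synthesis, stood at 28.1 and 16.8 FPKM and was not called, against 24.6 and 6.26 in 4c-S7, with a called difference. Its entry lies in a long stretch (chr3:9881128-9898006). Of 9 tested ethylene genes 4 were called lower (2 with the SE from the test statistic), 0 higher, and none differed between the lines; ACO4, an ethylene-forming enzyme, fell from 327 to 109 FPKM against 312 and 95.4.

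Genes of proline synthesis and breakdown were among those that changed. P5CS1, the stress-induced first enzyme of proline synthesis, rose from 12 to 189 FPKM in Dex-GDU1 (log2 4.23, SE at most 0.65) and stood at 9.49 and 30.7 in 4c-S7. PRODH1, which breaks proline down, fell from 27.7 to 4.62 FPKM against 34.2 and 12. Both differences between the lines, 2.28 and -1.08, were called with either SE. PRODH2, the other proline dehydrogenase gene, went the other way, from 3.05 to 5.97 FPKM against 2.85 and 2.42, and its rise and its difference of 1.20 were called with the main SE only. P5CR, the second enzyme of synthesis, was not called at 64.1 and 56.4 FPKM. The nitrate reductase genes NIA1 (13.0 to 65.7 FPKM) and NIA2 (144 to 345) rose, against 9.09 and 42.5 and 119 and 221 in 4c-S7, with no called difference. In all 9 of 26 nitrogen and amino acid metabolism genes were called higher and 6 lower (6 and 4 with the SE from the test statistic), and the median was 0.12.

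Amino acid transporters, the class of proteins nearest to the known function of GDU1, were called in both directions, with the larger changes on the higher side. Of 23 tested 10 were called higher and 6 lower (6 and 0 with the SE from the test statistic), and the median was 0.18 in Dex-GDU1 and 0.04 in 4c-S7. Of the 25 members 7 were at least 2-fold higher and 1 at least 2-fold lower. The difference was called as more positive for 6 and more negative for 0 (2 and 0 with the SE from the test statistic). PROT3, a proline transporter, rose from 2.59 to 9.77 FPKM against 2.53 and 5.51, a call made with the main SE only. AAP1, an amino acid permease, rose from 26.3 to 76.7 FPKM against 23.0 and 37.3, and UMAMIT18, an exporter, from 8.60 to 22.9 against 7.39 and 9.35. LHT1, the main uptake carrier of mesophyll cells, fell from 21.4 to 13.6 FPKM against 23.9 and 9.85, with a called difference of 0.63, both calls being lost with the SE from the test statistic. PROT2, another proline transporter, fell from 17.8 to 8.70, and its change matched that in 4c-S7 to within 0.01.

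Several iron genes stood lower in 4c-S7 than in Dex-GDU1 at 25 h. The subgroup Ib bHLH factors, which switch on iron uptake, are given first. BHLH38 stood at 59.5 and 47.2 FPKM in Dex-GDU1 and at 78.0 and 5.73 in 4c-S7. BHLH100 stood at 137 and 49.3 FPKM against 159.8 and 6.59, and BHLH101 at 20.5 and 15.1 against 21.6 and 3.45. At 7 h the lines were close in all 3 genes, and at 25 h Dex-GDU1 was above. BHLH39, a near copy of BHLH38, stood at 45.5 and 20.5 FPKM against 56.3 and 4.01. None of the 4 was called over time in Dex-GDU1 (BHLH100 was called lower with the SE from the test statistic), and the differences, 3.43, 3.13, 2.2 and 2.66 in the order given, were called with either SE. IMA1, a peptide that signals iron shortage, fell from 214 to 83.5 FPKM against 242 and 41.8. Of 14 tested iron genes 1 was called higher and 6 lower (0 and 5 with the SE from the test statistic), the median was -0.68 against -1.62, and the difference was called as more positive for 10 and more negative for 2 (7 and 0 with the SE from the test statistic). The ferritins FER3 and FER4, which store iron, differed the other way, with FER4 at 11.6 and 8.94 FPKM against 9.87 and 11.7.

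Type-A response regulators, which are induced by cytokinin and damp its signal, showed the reverse pattern. All 8 tested members had a more negative change in Dex-GDU1 than in 4c-S7, called for all 8 with the main SE and for 2 with the SE from the test statistic, and 1 was called higher over time and 0 lower. ARR15 stood at 2.99 and 2.52 FPKM in Dex-GDU1 and at 3.07 and 8.77 in 4c-S7. ARR7 stood at 23.7 and 20.6 FPKM against 23.3 and 36.4, and ARR6 at 16.7 and 8.63 against 19.0 and 24.5. The lines were alike at 7 h and Dex-GDU1 was lower at 25 h in these 3 genes. ARR9 was the one called higher, from 14.4 to 29.2 FPKM against 12.5 and 33.0.

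Cell wall loosening genes were also more negative in Dex-GDU1. Of 13 expansin and xyloglucan endotransglucosylase genes 3 were called higher and 6 lower (3 and 4 with the SE from the test statistic), and the difference was called as more negative for 9 and more positive for 0 (3 and 0 with the SE from the test statistic). EXPA1, an expansin of guard and growing cells, was not called at 124 and 90.5 FPKM in Dex-GDU1, while 4c-S7 stood at 111 and 304. EXPA8 fell from 97.3 to 37.2 FPKM against 88.9 and 52.6, and XTH9 from 63.0 to 28.6 against 75.8 and 61.7. XTH24 rose from 60.2 to 113 FPKM, against 64.5 and 110.5. Among 5 guard cell markers the difference was called for KAT1 and GASA9, both more negative. In whole leaves fewer cells of a type and less RNA per cell cannot be told apart.

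**Figure D5:**
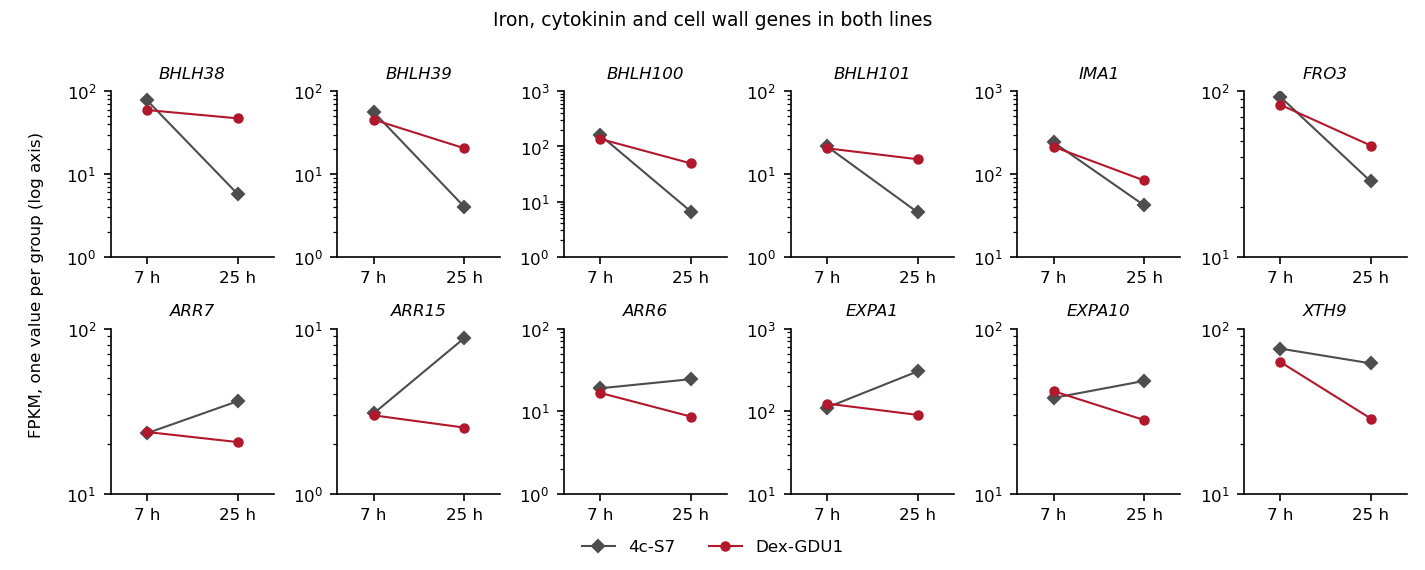
FPKM on log axes at 7 h and 25 h in 4c-S7 (diamonds) and Dex-GDU1 (circles), 1 authors' value per group and no error. The 4 bHLH iron factors drop in 4c-S7 and stay higher in Dex-GDU1, while ARR7, ARR15, EXPA1 and EXPA10 are higher at 25 h than at 7 h in 4c-S7 and not in Dex-GDU1.

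Genes of light harvesting, flavonoids and glucosinolates rose in Dex-GDU1 and were higher at 25 h in 4c-S7 too. Of 16 photosynthesis genes 15 were called higher and 0 lower (6 and 0 with the SE from the test statistic). LHCB1.1, a light-harvesting protein whose near copies can share its reads, rose from 823 to 6383 FPKM in Dex-GDU1 and stood at 551 and 7484 in 4c-S7. LHCB3, whose entry also lies in a long stretch (chr5:21993198-22162627), rose from 3303 to 7364 FPKM, against 2714 and 7512. The difference was called as more negative for 6 of the 16, none of them with the SE from the test statistic. Entries that the authors' software marked as having too many reads, which include LHCB1.3, RCA and 3 of the small subunit genes of Rubisco, have no usable value. CHS, the entry enzyme of flavonoid synthesis, rose from 5.55 to 111 FPKM against 7.99 and 142, and F3H from 0.937 to 30.6 against 0.987 and 17.0. All 4 tested flavonoid genes were called higher, and all 9 members were at least 2-fold higher. The difference was called as more positive for 3 of the 4, F3H among them, and for 0 with the SE from the test statistic. The anthocyanin regulator PAP1 was not tested and stood at 0.331 and 11.1 FPKM against 0.615 and 2.36. Of 17 glucosinolate genes 13 were called higher and 1 lower (10 and 1 with the SE from the test statistic), with BCAT4, of methionine chain elongation, rising from 88.2 to 263 FPKM against 62.0 and 177. Their difference was called as more positive for 3 (0 with the SE from the test statistic).

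Single genes with the largest rises outside these groups included ELIP1, an early light-induced protein (0.872 to 50.2 FPKM against 1.2 and 34.1), GBSS1, the amylose-making starch synthase (1.08 to 56.7 against 1.02 and 25.5), and NDA1, a mitochondrial NADH dehydrogenase (3.15 to 77.0 against 3.48 and 62.6). GPX7, a glutathione peroxidase, rose from 1.66 to 45.8 FPKM against 2.66 and 56.6 with no called difference. These genes were low at 7 h and high at 25 h in both lines. The difference was called as more positive for ELIP1 (1.02), GBSS1 (1.08) and NDA1 (0.44), with the main SE only. LEA3, a late embryogenesis abundant protein, had the largest rise among the called genes that carry a symbol and reach an FPKM of 5, from 0.927 to 139.9 FPKM (log2 7.49, SE at most 0.63), against 1.07 and 32.1. Its difference of 2.33 was called with the main SE only. Among the falls GER3, a germin-like protein, went from 1239 to 74.5 FPKM against 1554 and 168, and RVE2, a MYB relative of CCA1, from 86.1 to 6.6 against 78.8 and 5.99. The difference was called for GER3 (-0.84) with either SE and not for RVE2.

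Few genes went in opposite directions in the lines. Of the genes called higher in Dex-GDU1, 6 were at least 2-fold lower in 4c-S7, ARD3, KIN1 and DLO1 among them. Of those called lower, 1 was at least 2-fold higher in 4c-S7. This was AT1G03935, named here after its values were seen, with 246 and 0.330 FPKM in Dex-GDU1 and 0.940 and 74.0 in 4c-S7. A further 690 genes were more positive in Dex-GDU1 without a called change over time there, and 132 of them were at least 2-fold lower at 25 h in 4c-S7. Likewise 359 genes were more negative without a called change, 22 of them at least 2-fold higher in 4c-S7.

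Stress markers of other kinds were checked beside these groups. The shares over all tested genes were 16.8% called higher and 13% lower. Of 13 endoplasmic reticulum stress genes 2 were called higher and 2 lower (1 and 0 with the SE from the test statistic), and the difference was called as more positive for 11 (1 with the SE from the test statistic): BIP3, an inducible chaperone, rose from 1.21 to 4.05 FPKM against 2.45 and 2.38. Of 9 tested heat shock genes 1 was called higher and 5 lower (0 and 2 with the SE from the test statistic), and HSP90.1 fell from 22.0 to 5.84 FPKM against 24.3 and 3.16. Of 8 tested senescence genes 3 were called higher and 1 lower (2 and 0 with the SE from the test statistic). SAG13 rose from 7.40 to 69.4 FPKM against 9.08 and 30.4, and NAP, a NAC factor of leaf ageing, from 2.13 to 11.8 against 0.822 and 2.38. SAG12, the late senescence marker, was listed at 0 in all 4 groups.

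Tissue markers were checked against the label of leaves. Light-harvesting transcripts such as LHCB5 reached 6297 FPKM, all 6 flower markers stayed below the limit, and of 3 root markers only SCR, which leaves also express, was a member. Summed FPKM in Dex-GDU1 at 7 h and 25 h was 138 and 73.1 for 5 guard cell markers (139 and 151 in 4c-S7), 706 and 461 for 5 vascular markers (667 and 429.8) and 127 and 118 for 4 epidermal markers (129.9 and 136). The sums weigh abundant genes most. The median log2 change was -0.17 in Dex-GDU1 and -0.15 in 4c-S7 for the guard cell markers, and 0.25 and 0.15 for the vascular ones. Of the vascular markers SWEET11 (335 to 159.8 FPKM) and SWEET12 (155 to 43.7) were called lower. SUC2 (176 to 209.8) and XCP1 (25.0 to 32.2) were called higher, with the main SE only. The part of cell type in the gene groups above was not tested. Of 9 reference genes UBQ10 was called higher (log2 0.59) and ACT2 lower (-0.60), and the other 7 lay between -0.16 and 0.19 in Dex-GDU1.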

How the data were processed

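Leaf RNA was sequenced as paired reads of 100 bases, each library in 2 runs per the labels. Reads were aligned with TopHat2 and compared with Cufflinks and Cuffdiff on TAIR10, per the submitters' processing notes; versions, filters and strand setting are not given in the sources used here. The authors deposited 1 FPKM value per gene and group for each table, and depth is unknown, so no counting interval can be given and reads of overlapping genes on opposite strands cannot be told apart. The deposited p-value is, per the file headers, Cuffdiff's uncorrected one (smallest 5e-05), and the deposited score is its test statistic. The tables give no values per library, so the SE rests on the authors' own variance model, and sequencing runs may have entered it as replicates; if the deposited p-values are too small, so is the bound.

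Rows were joined by entry identifier between the 7 h and 25 h tables. Log2 ratios were centred on the median member. The SE of each line comparison was the absolute log2 fold change over the normal quantile of the deposited p-value, raised to at least the median of its FPKM bin (20 bins). The SE of a time change was taken as the root of the summed squares of both. If the deposited p-values hold, it is an upper bound, since each also holds the variance of 4c-S7. The difference of the time changes, Dex-GDU1 minus 4c-S7, has the same SE. Tests were two-sided against a normal distribution, adjusted by Benjamini-Hochberg over the tested members. A member counted as tested if the authors had made a test at both times and every group had a positive FPKM. The other 577 members did not meet this rule. Of 4782 members the p-value was the smallest possible in a table, where the SE is larger than it need be.

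Tested on simulated data, the time test recovered 25.0% of log2 changes of 0.5, 69.2% of 1.0 and 97.0% of 2.0; none of 16768 unchanged genes (of 16968) was called. The test of the difference between the lines called 79 of 8167 genes simulated without a difference (0.967%) and 81.2% of differences of at least 0.5. The simulation drew p-values from known SEs and cannot show whether the deposited ones are right. It changed far fewer genes over time (68, 65 and 67 by size) than were called in the data, so its recovery rates may not hold there. Its noise in Dex-GDU1 was set below the SE that the time test uses, so a low rate of false calls over time was built in. The 31 gene lists hold 431 genes, of which 383 were members with an entry of their own, 354 of these tested, 11 were in entries that join several genes, 36 were below the limit or had too many reads, and 1 (AMT1;1) was not matched. Where several entries carry a gene, the one with the highest summed FPKM stands for it. The named genes were the GDU family, the called genes that carry a symbol, reach an FPKM of 5 and had the largest changes and differences, the largest shared and opposite changes, and called list members; uncalled list members were named after their values were seen. The members and the gene lists were chosen with earlier results of these data known. Names and windows come from RefSeq TAIR10.1. Python 3.11.15, pandas 2.3.3, NumPy 2.4.6 and SciPy 1.17.1 were used. Alternatives were no or a higher FPKM limit, other centrings, a pseudocount, other thresholds, the SE from the test statistic, no minimum SE and no joined entries.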

Additional observations from a re-analysis of the deposited data

Results flagged for a closer look

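The change from 7 h to 25 h differed between the lines for 1507 genes that were more positive in Dex-GDU1 and 836 that were more negative, by the test of the difference itself. On the log2 scale, the named genes with the largest more positive differences were LTP4 (6.81), ARD3 (5.23), LTP3 (5.16), KIN1 (4.23), PR1 (3.65), GolS2 (3.57), AIG1 (3.41), DLO1 (3.26), BFT (3.11) and DIP2 (3.08). Those with the largest more negative differences were PYL6 (-2.36), PP2-A5 (-2.19), RAP2.9 (-1.98), ABCB21 (-1.88), PYL4 (-1.55), ACHT5 (-1.49), ESE3 (-1.48), UGT73C6 (-1.44), RHA2B (-1.40) and TBL45 (-1.36). With the SE from the test statistic the difference was not called for BFT, UGT73C6 and RHA2B.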

How the results depend on the processing

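No paired analysis was possible because the deposited tables hold 1 value per group and no values per library, and for the same reason no library could be left out. No gene named or listed changed the sign of a called value under an alternative, but the balance of higher and lower calls turned from 2851 and 2209 to 2423 and 2853 with the reference genes at 0. Without the FPKM limit 2193 genes were at least 2-fold higher and 1298 at least 2-fold lower; with a limit of FPKM 5, 436 were at least 2-fold lower. Without centring 1655 genes were called higher and 5996 lower, and 1235 were at least 2-fold lower. With a pseudocount of 1, 423 were at least 2-fold lower. With the SE from the test statistic 959 genes were called higher and 508 lower, and the difference between the lines was called for 257 more positive and 69 more negative genes. At an adjusted p below 0.01 the difference was called for 712 and 361 genes. A limit of 1.5-fold gave 2438 higher and 1803 lower genes, and one of 4-fold gave 500 and 184. Of 412 list and named genes 73 lost their call with the SE from the test statistic. A call was lost by 18 without centring, 17 with a pseudocount, 8 with the reference genes at 0 and 2 without the FPKM limit. The 412 include genes that had no call to lose. Over all tested members 1905 of the 2851 higher calls and 1714 of the 2209 lower calls were lost with the SE from the test statistic. Depth is unknown, and some genes with little signal at 7 h or at 25 h were not tested, PRR9 and CO among them. The cause of these shifts was not tested.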

Other observations

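Genes that differed between the lines outside the groups described above were of several kinds. AIG1, a gene induced by bacterial effector recognition, rose from 1.91 to 21.6 FPKM in Dex-GDU1 against 3.78 and 4.00 in 4c-S7, and BFT, a relative of the flowering regulators FT and TFL1, from 1.06 to 5.01 against 1.46 and 0.80. ABCB21, an auxin transporter, fell from 13.4 to 1.63 FPKM against 12.8 and 5.71. RAP2.9, an ERF-type factor, fell from 14.0 to 1.12 against 12.6 and 3.96, and ACHT5, a chloroplast thioredoxin, from 41.8 to 3.52 against 24.8 and 5.88. PP2-A5, a phloem lectin, fell from 5.56 to 2.04 FPKM while 4c-S7 stood at 2.82 and 4.73. In the mitochondrial and oxidative stress list 1 of 11 tested genes was called higher and 7 lower (1 and 5 with the SE from the test statistic), with UPOX falling from 99.5 to 25.3 FPKM against 118 and 40.9. Of 7 tested genes of the dark and sugar starvation list 3 were called higher and 2 lower (1 and 2 with the SE from the test statistic). DIN10, an enzyme of raffinose-type sugars, fell from 82.5 to 36.1 FPKM against 81.7 and 72.5. Of 10 auxin genes 5 were called lower and 0 higher (1 and 0 with the SE from the test statistic), and no difference between the lines was called.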
